A study of Mus musculus with 12 samples.

Results

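Regulatory T cells (Treg cells) of the mouse spleen that had been treated for 3 days with antibodies to CD3 and CD28 were compared with untreated Treg cells. The members are the 4 arrays of these groups, 2 titled as anti-CD3-CD28 Treg and 2 as control Treg, of 12 arrays in the series, and the comparison ran over 22180 genes. All cells came from Foxp3.eGFP mice of the C57BL/6 background, 8 weeks old, in which GFP marks cells that make FOXP3. CD4+ cells of the whole spleen, a mixture of Foxp3+ Treg and Foxp3- Teff (effector) cells, received each antibody at 2 µg/ml, and the cell types were profiled apart. Another group of Treg arrays came from cells given OX40L at 5 µg/ml with JAG1 at 1 µg/ml, soluble ligands of the receptor OX40 and of Notch, over the same time. Each group had 2 arrays, here called replicates 1 and B. No culture is given for the control cells, so the effects of culture and of the antibodies cannot be told apart in the main comparison. No label says whether the replicates are separate mice or cultures, or whether cells were pooled, so p-values reflect the scatter of these particular samples, part or all of which may be technical. In bulk RNA, fewer cells of a type and less RNA per cell cannot be told apart.

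CD3 transmits the signal of the T cell receptor and CD28 is its main costimulatory partner. Antibodies to both replace antigen and drive T cells from quiescence into growth and division, through calcium and NFAT, ERK and AP-1, NF-kappaB, and PI3K and mTOR. Treg cells restrain other T cells, carry the high-affinity IL-2 receptor and make almost no IL-2 themselves, so in a mixed CD4+ culture they can use the IL-2 of their neighbours. On activation they acquire suppressive molecules such as CTLA-4, IL-10 and granzyme B.

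The values are log2 intensities, and a change is the difference of 2 group means on that scale with its standard error (SE). Changes were tested with limma over all 12 arrays, and adjusted p-values (Benjamini-Hochberg, two-sided) under 0.05 were called. The arrays bore out the labelled cell type: Foxp3 was at 10.37 and 10.36 in control Treg and at 11.22 and 11.02 in anti-CD3-CD28 Treg cells, and the T cell genes Cd4 (10.61 and 10.31 against 10.84 and 10.48) and Cd3e (11.62 and 11.26 against 11.41 and 11.47) were present throughout. The OX40L-JAG1 Teff arrays stood apart, with a correlation of 0.881 between replicates against 0.984 to 0.994 in the other groups, and they widened the spread used in every test. Without either of them 3273 genes rose (14.8%) and 1497 fell (6.75%), and without any 1 of the 4 compared arrays 869 to 1055 rose and 185 to 221 fell. Signal over background cannot be claimed for a group whose mean is under 4.72, the median of the dimmest array. A change to or from such a level may be understated. Brackets after a list's count give its range over fits with 1 of the 12 arrays left out.

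In anti-CD3-CD28 Treg cells 1792 genes rose (8.08% of those tested) and 438 fell (1.97%), and the rises were 80.4% of the 2230 called genes, which were 10.1% of all. After quantile normalization 4.53% of genes rose and 2.35% fell, and with the trend of change on level removed by loess 5.77% rose. The share of rises was 65.8% after quantile normalization and 68.6% without the OX40L-JAG1 Teff arrays. Changes of at least 2 on the log2 scale were seen in 272 of the rises and 91 of the falls, and changes of at least 4 in 15 and 2. The mean of the control arrays lay below 4.72 for 230 of the genes that rose, and that of the anti-CD3-CD28 arrays for 122 of those that fell. Of the falls, 75 were small nucleolar or Cajal body RNA genes (17.1%), and 244 were protein-coding genes without such a gene inside them. Protein-coding genes of that kind made up 1704 of the rises.

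**Figure D1:**
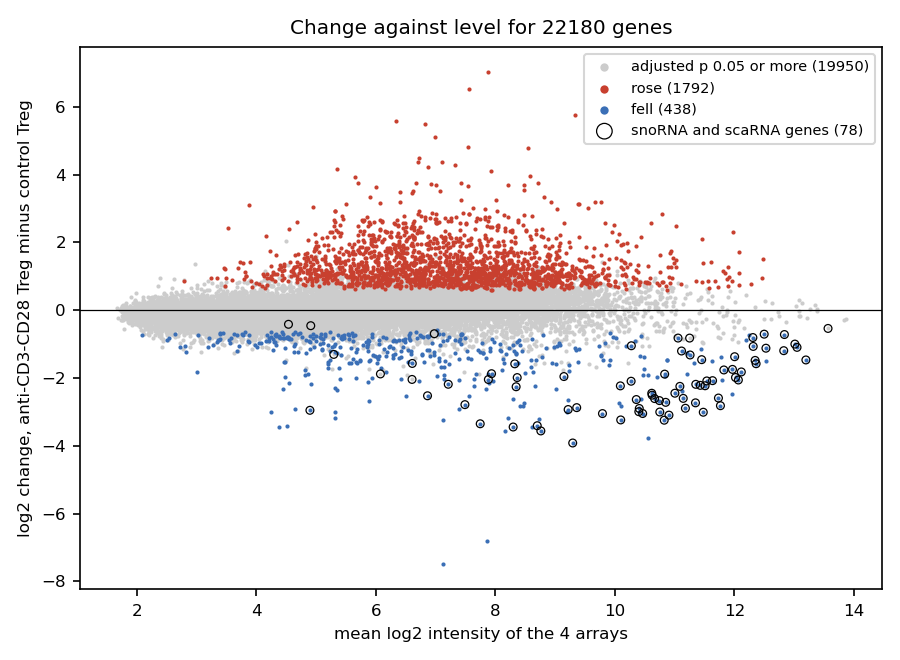
Change (log2, anti-CD3-CD28 Treg minus control Treg, vertical axis) against the mean log2 intensity of the 4 arrays (horizontal axis) for 22180 genes, with the 1792 that rose in red, the 438 that fell in blue and the 78 listed snoRNA and scaRNA genes circled. The circled genes lie below 0, most of them at the right of the plot, and no red point is circled.

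Beside the granzyme genes described further on, Il12rb2, the inducible chain of the IL-12 receptor, had the largest rise. It was at 4.80 and 3.82 in control Treg cells and at 10.86 and 10.77 after anti-CD3-CD28, a change of 6.51 ± 0.28 (adjusted p = 8.98e-07). Scd1, which makes monounsaturated fatty acids, went from 4.001 and 3.091 to 8.91 and 9.36. Cyp11a1, the mitochondrial enzyme that starts steroid hormone synthesis from cholesterol, went from 3.93 and 4.22 to 9.65 and 9.48. With all rows of the gene averaged in place of the brightest one, the change of Cyp11a1 was 3.21. The control mean of each of these genes lay below 4.72. Efna5, an ephrin ligand, had 4.48 and 4.57 before and 8.72 and 9.05 after, and the actin regulator Enah 3.85 and 3.55 before and 7.52 and 7.70 after. Ermn, a cytoskeletal protein gene best known from oligodendrocytes, rose by 4.16 ± 0.32, and Tube1, an epsilon tubulin of centrioles, by 3.76 ± 0.18. As for every called gene, the arrays of the groups did not overlap for the 30 genes plotted, and 62.2% of all genes had no overlap.

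**Figure D2:**
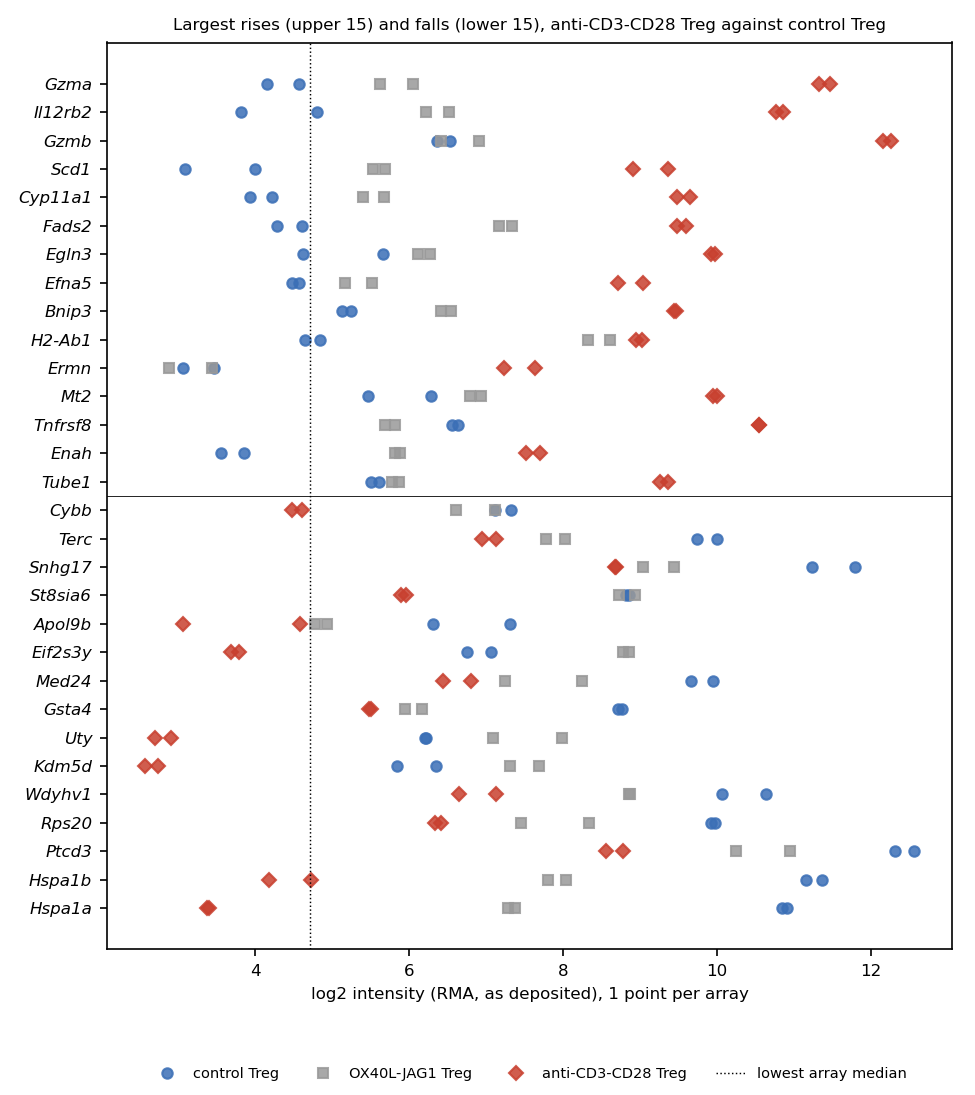
Log2 intensity (horizontal axis, 1 point per array) of the 15 genes with the largest rises and the 15 with the largest falls among named genes other than small RNAs, with control (blue), OX40L-JAG1 (grey) and anti-CD3-CD28 (red) Treg cells. Red and blue points do not overlap for any gene, and the grey OX40L-JAG1 points lie near the blue ones for Gzmb and St8sia6 and near the red ones for H2-Ab1.

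The 2 largest falls were of the inducible HSP70 genes Hspa1a and Hspa1b, which encode chaperones switched on by heat and other protein-damaging stress. Hspa1a was at 10.85 and 10.91 in control Treg cells and at 3.37 and 3.39 in anti-CD3-CD28 Treg cells (change -7.50 ± 0.23, adjusted p = 5.33e-08). Hspa1b was at 11.37 and 11.16, then at 4.72 and 4.18. These neighbours on chromosome 17 are nearly identical, so signal may be shared between them, though their transcripts were not compared here. Outside the transcripts, the 250 bases before their RefSeq starts (GRCm38.p6, chr17:34972157-34972406 and chr17:34959239-34959488, minus strand) match at 247 of 250 positions. Both sequences are shown because the genes lead the falls, with the heat shock element letters GAANNTTC in capitals, 104 bases before the start.
Hspa1a: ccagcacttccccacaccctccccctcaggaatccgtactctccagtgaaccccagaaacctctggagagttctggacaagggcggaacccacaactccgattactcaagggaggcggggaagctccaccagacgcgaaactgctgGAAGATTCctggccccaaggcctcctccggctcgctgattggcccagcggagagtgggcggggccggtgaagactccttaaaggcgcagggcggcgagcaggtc
Hspa1b: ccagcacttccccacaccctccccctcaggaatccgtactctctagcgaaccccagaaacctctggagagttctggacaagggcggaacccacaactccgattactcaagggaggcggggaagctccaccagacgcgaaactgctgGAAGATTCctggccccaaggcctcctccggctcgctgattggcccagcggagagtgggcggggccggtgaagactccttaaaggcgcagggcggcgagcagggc
GAANNTTC or TTCNNGAA, either strand, from 250 bases before to 50 after the start, was found for 15 of the 32 heat shock list genes with a promoter in the table (46.9%) and for 15.7% of all 16990 tested genes with one. Most other chaperone genes did not pass. Among all tested genes 1.97% fell and 8.08% rose. Of 39 measured cytosolic chaperone genes 4 fell (2 to 7) and 2 rose (1 to 8), and the median change was 0.05, against -0.05 over all genes. Hspa1l, a further neighbour in that cluster, fell by 1.87 ± 0.37 on the log2 scale (by 0.84 with all rows averaged) and Dnajb4 by 1.08 ± 0.21. The constitutive Hspa8 (11.63 and 11.65, then 12.21 and 12.19, adjusted p = 0.0664), Hsp90aa1 (-0.18 ± 0.28), Hsph1 (-0.37 ± 0.22) and Dnajb1 (-0.72 ± 0.24, adjusted p = 0.0931) did not pass. The change of Hspa8 ran from -0.52 to 1.02 over the alternatives tried, so its direction is not settled. The calls of Hspa1l and Dnajb4 were lost in some fits with 1 array left out (adjusted p up to 0.0684 and 0.0868), and that of Hspa1l after quantile normalization (0.0733). In OX40L-JAG1 Treg cells Hspa1a was at 7.29 and 7.38, between the values of the other Treg groups.

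Of 33 measured genes of the receptor complex and its proximal signalling 8 rose (3 to 13), 24.2% against 8.08% of all genes, and 0 fell, with a median change of 0.22 that became -0.07 with the level trend removed by loess. Trat1, an adaptor that stabilises the receptor at the surface, went from 9.27 and 8.75 to 10.99 and 11.12 (2.04 ± 0.26). Icos, a costimulatory receptor of the CD28 family, went from 9.23 and 9.05 to 10.98 and 11.15 (1.93 ± 0.23), and Malt1, the protease that links the receptor to NF-kappaB, rose by 1.22 ± 0.19. Cd3e (0.00 ± 0.18), Zap70 (0.12 ± 0.20), Lat (-0.17 ± 0.27), Cd5 (-0.02 ± 0.18) and Cd28 itself (0.74 ± 0.25, adjusted p = 0.101) did not pass.

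Genes that receptor signalling induces early changed in both directions. Of 27 measured immediate early transcription factors 8 fell (3 to 10, the lowest without anti-CD3-CD28 Treg replicate 1) and 5 rose (3 to 6). With the arrays set to a common median 5 fell, when 1.52% of all genes did, and after quantile normalization 3 rose. Of all genes 1.97% fell and 8.08% rose in the main comparison, and 4.53% rose after quantile normalization. Fos, a subunit of AP-1, was at 10.63 and 10.68 in control Treg cells and at 9.28 and 9.10 after anti-CD3-CD28 (-1.46 ± 0.24, adjusted p = 0.0019). Fosb fell by 1.30 ± 0.22, the antiproliferative gene Btg2 by 1.62 ± 0.22 and Klf6 by 1.32 ± 0.23, a call that was lost without anti-CD3-CD28 Treg replicate 1 (adjusted p = 0.0531). Egr1 (-0.69 ± 0.27, adjusted p = 0.149) and Myc (-0.10 ± 0.21) did not pass. Nr4a1, a reporter of recent receptor signalling, had -0.74 ± 0.20 and an adjusted p of 0.0364, which reached 0.295 with 1 array left out. The rises were of Fosl2 (6.03 and 6.11, then 8.28 and 8.21), Ier3 (2.38 ± 0.30), Bhlhe40 (1.61 ± 0.22), Irf4 (0.99 ± 0.18) and Batf (1.69 ± 0.43). IRF4 and BATF act together in effector Treg cells. Without 1 array the adjusted p of Irf4 was up to 0.0538 and that of Batf up to 0.164, and after quantile normalization they were 0.0622 and 0.331.

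Phosphatases and other brakes on ERK signalling changed in both directions. Among 13 genes 3 rose (3 to 6) and 2 fell (1 to 3). The phosphatases Dusp4 (6.67 and 6.56, then 8.78 and 8.34), Dusp5 (1.81 ± 0.26) and Dusp16 (1.70 ± 0.25) rose, while Spry1 fell by 1.17 ± 0.20 and Dusp1 by 1.35 ± 0.36, the latter with an adjusted p up to 0.193 when 1 array was left out. Dusp6 (-0.12 ± 0.30) and Dusp2 (-0.62 ± 0.32) did not pass. In the NF-kappaB list Bcl3, an atypical nuclear inhibitor family member that can activate, was the single rise of 16 (7.89 and 7.72, then 9.61 and 9.35), and Nfkbid fell (-0.87 ± 0.21, adjusted p up to 0.213 with 1 array left out). Nfkb2 (0.37 ± 0.17), Rela (0.48 ± 0.19) and Nfkbia (0.12 ± 0.22) did not pass. The rise and the fall were each 6.25% of this list, against 8.08% and 1.97% of all genes.

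Most genes of the IL-2 pathway rose. Of 20 measured genes of the IL-2 receptor, STAT5 and the SOCS feedback 14 rose (11 to 16) and 0 fell, with a median change of 1.37. The rises were 70% of the list, against 8.08% of all genes. Il2ra, the high-affinity chain CD25, went from 11.19 and 11.24 to 12.86 and 12.99 (1.71 ± 0.27), and Il2rb from 10.88 and 10.67 to 12.28 and 12.08 (1.40 ± 0.25). The STAT5 targets and feedback inhibitors Socs2 (6.91 and 6.56, then 9.67 and 9.42), Cish (1.50 ± 0.19) and Socs1 (1.93 ± 0.27) rose with them. Il4ra, the IL-4 receptor chain, rose by 2.50 ± 0.24 and the cytokine gene Lif by 2.45 ± 0.20. Il2 itself stayed at 2.56 and 3.03 before and 2.58 and 2.65 after, below the level that shows expression.

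Tnfrsf8, which encodes the TNF receptor family member CD30, had the largest rise of these receptors, from 6.63 and 6.56 to 10.55 and 10.55 (3.96 ± 0.25, adjusted p = 5.62e-06). In OX40L-JAG1 Treg cells Tnfrsf8 was at 5.82 and 5.68, below the control arrays. Of 26 costimulatory TNF receptors and ligands 8 rose (2 to 10) and 2 fell (0 to 4), and after quantile normalization 4 and 4. Over all genes 8.08% rose and 1.97% fell, and after quantile normalization 4.53% and 2.35%. Tnfrsf9, which encodes 4-1BB, went from 9.78 and 9.79 to 12.26 and 12.27 (2.48 ± 0.18). Tnfrsf18, which encodes GITR, rose by 1.68 ± 0.40, with an adjusted p up to 0.158 when 1 array was left out and of 0.0639 after loess. Tnfrsf4, which encodes OX40, rose by 1.27 ± 0.25 (up to 0.0682). Cd27 was at 10.33 and 9.98 before and 10.28 and 10.03 after. Tnfsf11, which encodes RANKL, had -1.36 ± 0.29 and Lta -0.69 ± 0.19, with adjusted p up to 0.149 and 0.25 without 1 array.

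Among 24 cytokine receptors of other families 4 rose (4 to 8) and 1 fell (1 to 2). These were 16.7% and 4.17% of the list, against 8.08% and 1.97% of all genes. Beside Il12rb2, its partner Il12rb1 went from 6.13 and 6.34 to 8.92 and 8.61 (2.53 ± 0.24), so both chains of the IL-12 receptor rose. Il18rap, a chain of the IL-18 receptor, rose by 1.75 ± 0.29, and Ifngr1, the ligand-binding chain of the interferon-gamma receptor, from 10.04 and 9.83 to 11.51 and 11.62. Il6ra, the IL-6 receptor, fell from 9.38 and 9.43 to 8.25 and 8.35 (-1.11 ± 0.20). Il10ra had 0.91 ± 0.29 (adjusted p = 0.0756).

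Among Treg identity genes rises outnumbered falls. Of 27 measured genes 14 rose (7 to 15) and 2 fell (2 to 3). After quantile normalization 9 rose and 3 fell. Over all genes the shares were 8.08% and 1.97%, and 4.53% and 2.35% after quantile normalization. Foxp3, which specifies the lineage, changed by 0.75 ± 0.21 (adjusted p = 0.0405). The call of Foxp3 was lost with 1 array left out, with an adjusted p up to 0.275, and after loess (0.44, adjusted p = 0.289). Ikzf2, which encodes Helios, was at 10.43 and 10.76 before and 10.67 and 10.84 after, and did not pass. Lrrc32, which encodes GARP and holds latent TGF-beta at the surface, went from 9.55 and 9.34 to 11.16 and 10.57 (1.42 ± 0.23). Entpd1, which encodes the ectonucleotidase CD39, went from 7.78 and 7.71 to 9.16 and 9.25. Nrp1, a marker of thymus-derived Treg cells, fell from 8.999 and 8.914 to 6.81 and 6.82 (-2.14 ± 0.25, adjusted p = 0.000188). Cd83 fell from 8.96 and 9.02 to 6.82 and 7.01 (-2.08 ± 0.23). Satb1, a chromatin organiser held low in Treg cells, rose by 1.39 ± 0.18.

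Inhibitory receptors changed in both directions. Of 19 measured, 5 rose (3 to 7) and 4 fell (2 to 6), and after quantile normalization 3 rose. The rises and falls were 26.3% and 21.1% of the list, against 8.08% and 1.97% of all genes. After quantile normalization 4.53% of all genes rose. Havcr2, which encodes TIM-3, went from 4.91 and 4.66 to 7.61 and 7.25 (2.65 ± 0.26). Ctla4 went from 9.57 and 9.47 to 10.74 and 10.76 (1.23 ± 0.23), Lag3 rose by 1.14 ± 0.19 and Tigit by 1.36 ± 0.29. Falls were seen for Btla, from 9.44 and 9.42 to 7.48 and 7.66 (-1.86 ± 0.24), for Cd200, from 7.34 and 7.26 to 5.77 and 5.76 (-1.53 ± 0.17), for Klrg1 (-1.19 ± 0.27) and for Cd160 (-1.16 ± 0.30). Pdcd1, which encodes PD-1, had -0.79 ± 0.28 and did not pass (adjusted p = 0.109). With 1 array left out the adjusted p reached 0.0543 for Ctla4, 0.135 for Tigit, 0.143 for Klrg1 and 0.202 for Cd160, which was also lost after quantile normalization (0.123). Lag3 (0.78) and Tigit (1.05) did not pass after quantile normalization (adjusted p = 0.13 and 0.1).

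Cytotoxic granule genes held the largest rise of all. Gzma, a granzyme of killer cells, went from 4.15 and 4.57 to 11.47 and 11.33 (7.04 ± 0.65, adjusted p = 4.18e-05). Gzmb, the granzyme that activates caspases, went from 6.53 and 6.36 to 12.16 and 12.27 (5.77 ± 0.26, adjusted p = 8.98e-07). Prf1, which encodes the pore protein perforin, was at 6.07 and 6.25 before and 7.17 and 6.88 after (0.87 ± 0.20, adjusted p = 0.0165, up to 0.177 without 1 array and 0.359 after quantile normalization). Serpinb9, whose protein inhibits granzyme B, rose from 6.64 and 5.98 to 8.09 and 8.00. Of 23 measured granule genes 8 rose (3 to 11) and 1 fell (1 to 2), and after quantile normalization 3 rose and 2 fell. The fall was of the cathepsin gene Ctsw (9.01 and 9.06, then 7.89 and 7.80). Over all genes 8.08% rose and 1.97% fell, and after quantile normalization 4.53% and 2.35%. Gzma is also in the list of CD8 T and NK cell markers. The defining genes of those cells did not pass: Cd8a (4.43 and 5.21, then 5.22 and 4.92), Ncr1 (3.76 and 4.10, then 3.76 and 4.11) and Klrb1c (3.28 and 3.92, then 2.82 and 3.17) lay near or below 4.72.

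Of 23 T helper lineage regulators 11 rose (7 to 14) and 2 fell (1 to 3), and after quantile normalization 7 rose. Over all genes 8.08% rose and 1.97% fell, and 4.53% rose after quantile normalization. Nfil3, a basic leucine zipper factor, went from 6.62 and 6.79 to 10.26 and 10.23 (3.54 ± 0.21, adjusted p = 4.08e-06). Runx3, which supports cytotoxic and type 1 programmes, went from 5.44 and 5.08 to 7.67 and 7.21 (2.18 ± 0.25). Stat3 rose by 1.52 ± 0.19, Gata3 of the type 2 lineage by 1.20 ± 0.21 (0.72 with all rows averaged) and Maf by 1.06 ± 0.18 (0.68 after quantile normalization). Tbx21, which encodes T-bet, had 0.93 ± 0.21 and an adjusted p of 0.0164, up to 0.174 without 1 array and 0.11 after quantile normalization. Id3 fell from 7.82 and 7.70 to 5.29 and 5.18 (-2.53 ± 0.34), while its relative Id2 went up from 8.16 and 7.48 to 9.28 and 9.45 (adjusted p = 0.042, up to 0.299 without 1 array and 0.122 after loess). Tox fell by 1.00 ± 0.18 (up to 0.0631).

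Some cytokine genes rose. Of 30 measured 8 rose (4 to 9), 26.7% against 8.08% of all genes, and 2 fell (0 to 2). After quantile normalization 4 rose, and 12 of the 30 lay below 4.72 in both groups. Il10, the main suppressive cytokine of Treg cells, went from 6.17 and 6.19 to 7.42 and 7.51 (1.28 ± 0.25), a call lost without anti-CD3-CD28 Treg replicate B (adjusted p = 0.0613). Il24 went from 4.08 and 4.05 to 5.90 and 5.98 and Il13 from 4.86 and 4.70 to 6.41 and 6.47. Il4 had 1.16 ± 0.28. Ifng (4.67 and 5.13, then 5.43 and 5.45) and Il17a (3.12 and 3.62, then 3.96 and 3.66) did not pass. Without 1 array the adjusted p of Il13 was up to 0.0831 and that of Il4 up to 0.172, and after quantile normalization they were 0.069 and 0.055.

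Homing and adhesion genes changed in both directions. Their counts stand beside 8.08% of all genes that rose and 1.97% that fell. Of 22 chemokine receptors 3 rose (2 to 8) and 3 fell (1 to 3). Cxcr6 went from 4.68 and 4.59 to 7.201 and 7.004 (2.47 ± 0.35) and Ccr8, a receptor of activated Treg cells in tissues, from 8.42 and 8.40 to 9.80 and 9.87 (1.42 ± 0.19). Ccr6 fell from 6.80 and 6.53 to 4.44 and 4.90 (-1.99 ± 0.21), and Cxcr5, which leads cells to B cell follicles, by 1.45 ± 0.27 (adjusted p up to 0.0636 without 1 array). Of 38 adhesion genes 14 rose (8 to 17) and 4 fell (2 to 8), and after quantile normalization 9 and 7. Itgb3, an integrin beta chain, rose from 7.26 and 7.42 to 10.51 and 10.53 (3.18 ± 0.21), and Fut7, which completes selectin ligands, from 4.97 and 5.42 to 7.99 and 7.58. Itga4, the alpha chain of VLA-4, fell from 10.14 and 10.20 to 7.82 and 7.87 (-2.33 ± 0.18). Selplg, the P-selectin ligand, rose by 1.16 ± 0.17, a call lost with all rows averaged (0.54, adjusted p = 0.14). Of the chemokine ligands, Ccl3 went from 4.67 and 4.51 to 6.75 and 6.89 and Ccl22 from 3.91 and 4.08 to 5.54 and 5.83.

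Quiescence and recirculation genes fell in 10 of 36 (4 to 11) and rose in 4 (2 to 9). Ramp1, a receptor partner, fell from 6.68 and 6.26 to 4.86 and 5.15, and Tsc22d3, a glucocorticoid target, by 1.33 ± 0.25 (adjusted p = 0.0515 without anti-CD3-CD28 Treg replicate 1). Klf2, the factor that maintains egress and quiescence, went from 10.27 and 10.03 to 8.83 and 8.38 (-1.54 ± 0.38, adjusted p = 0.0253, up to 0.204 without 1 array). S1pr1, which KLF2 is known to activate, was at 9.98 and 9.89 before and 9.86 and 9.99 after, and Foxo1 (0.09 ± 0.18) and Lef1 (-0.25 ± 0.19) did not pass. Ccr7 stood at the threshold (-0.66 ± 0.19, adjusted p = 0.0499). The counts of this list stand beside 1.97% of all genes that fell and 8.08% that rose.

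Notch pathway genes changed in both directions. Of 28 measured 5 rose (2 to 7), 17.9% against 8.08% of all genes, and 2 fell (1 to 3), 7.14% against 1.97%. After quantile normalization, and after loess, 2 rose. Dtx1, a Notch target and E3 ligase linked to T cell anergy, fell from 8.82 and 8.82 to 6.30 and 6.30 (-2.52 ± 0.20, adjusted p = 1.5e-05). In OX40L-JAG1 Treg cells Dtx1 was at 6.68 and 6.75, below the control arrays too. Jag1, a Notch ligand, rose from 3.94 and 4.31 to 5.40 and 5.24 (1.20 ± 0.23, adjusted p up to 0.0699 without 1 array). Maml1, a coactivator, rose by 1.17 ± 0.19, while Notch2 (0.05 ± 0.20) and the target Hes1 (-0.63 ± 0.19, adjusted p = 0.0576) did not pass.

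**Figure D3:**
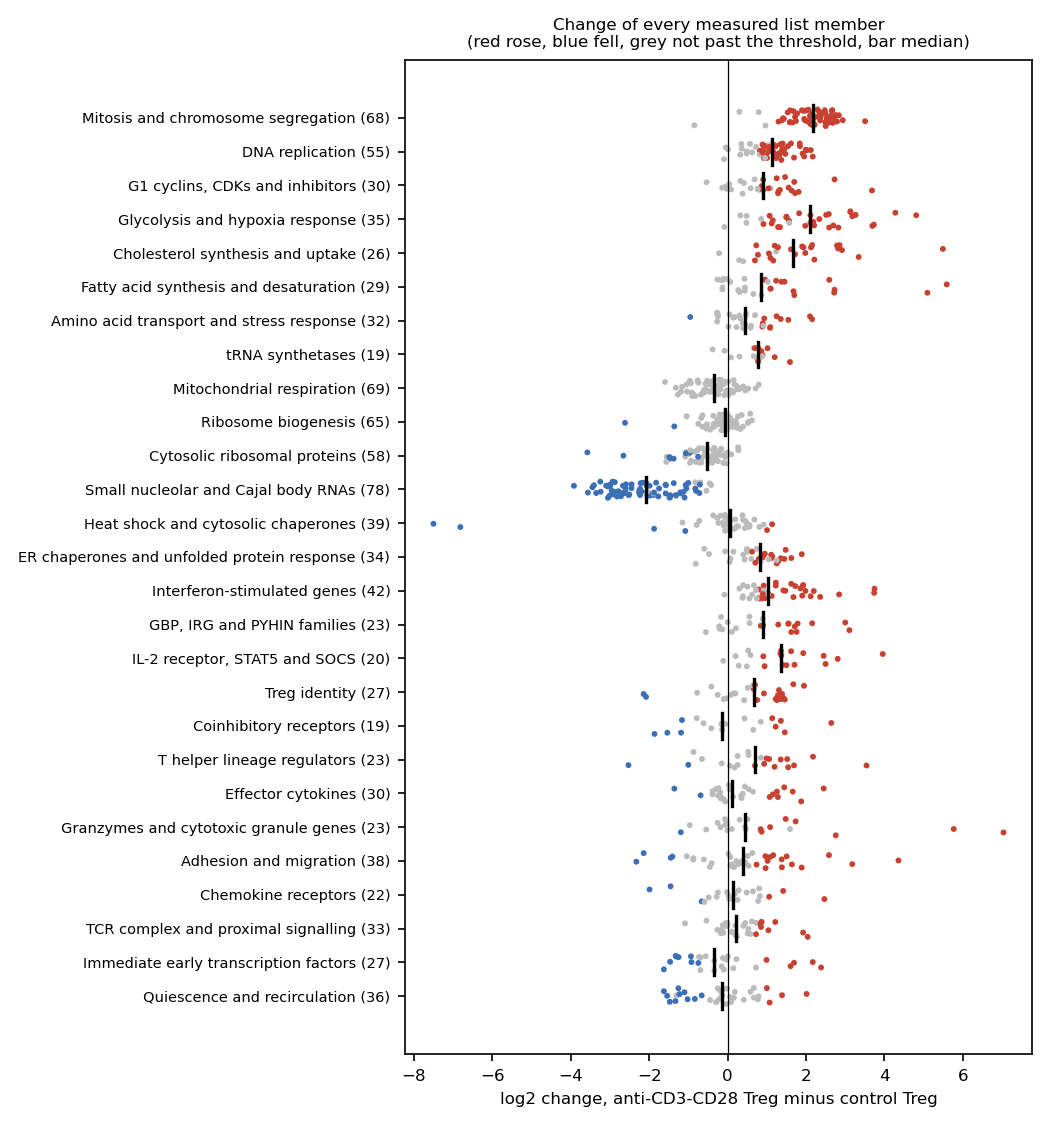
Change (log2, horizontal axis) of every measured member of 27 gene lists, 1 point per gene, with the list's number of measured genes in brackets and its median as a black bar. Mitosis (median 2.18) and glycolysis and hypoxia (2.11) lie to the right and snoRNA and scaRNA genes (-2.09) to the left. Respiration and ribosome biogenesis lie between them with no red point.

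Nearly all mitosis genes rose. Of 68 measured mitosis and chromosome segregation genes 64 rose (57 to 66), with a median change of 2.18. Bub1, a spindle checkpoint kinase, went from 5.77 and 4.86 to 8.87 and 8.78 (3.51 ± 0.31). The kinesin gene Kif4 went from 5.18 and 5.32 to 8.07 and 8.30, Plk1 from 6.80 and 6.85 to 9.67 and 9.49, and Mki67, the proliferation marker, from 8.86 and 8.75 to 11.09 and 11.11 (2.30 ± 0.39). Cdk1 had 1.90 ± 0.47, with an adjusted p up to 0.147 without 1 array and of 0.227 after quantile normalization. The letters TTTGAA, the cell cycle homology region, were in the promoters of 37 of 56 of these genes (66.1%) and of 17.8% of all genes.

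DNA replication genes rose in 40 of 55 (19 to 47), with a median of 1.14, and in 17 after quantile normalization. Cdc6, which loads the replicative helicase, went from 5.30 and 5.81 to 7.72 and 7.74 (2.17 ± 0.20, adjusted p = 3.77e-05), Rrm2, a subunit of ribonucleotide reductase, from 6.39 and 6.68 to 8.63 and 8.69, and its partner Rrm1 rose by 2.00 ± 0.21. The helicase gene Mcm2 had 1.17 ± 0.21 (adjusted p = 0.0575 without anti-CD3-CD28 Treg replicate 1 and 0.216 after quantile normalization). Pcna, the sliding clamp, was at 10.36 and 10.30 before and 10.73 and 10.65 after and did not pass. The E2F letters TTTGGCGC or TTTCCCGC were found for 15 of 46 replication promoters (32.6%), against 2.37% of all. Cdc6 is shown as the member with the largest rise. Its 250 bases (RefSeq, GRCm38.p6, chr11:98907901-98908150, plus strand) hold the reverse complement of TTTCCCGC, in capitals, 138 bases before the start.
Cdc6: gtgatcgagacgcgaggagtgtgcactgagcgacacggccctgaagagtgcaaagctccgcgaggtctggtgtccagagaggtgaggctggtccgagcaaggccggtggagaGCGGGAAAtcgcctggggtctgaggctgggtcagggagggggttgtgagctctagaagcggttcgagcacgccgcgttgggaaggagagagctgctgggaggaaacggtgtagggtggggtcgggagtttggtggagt

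In G1, 16 of 30 genes rose (8 to 21). E2f8, a repressor of the E2F family, went from 5.80 and 5.27 to 8.29 and 8.25 (2.73 ± 0.22), Ccnd3 from 7.91 and 7.83 to 9.63 and 9.23, and Ccne1 rose by 1.70 ± 0.25. Cdkn1a, which encodes the cell cycle inhibitor p21, rose most of the list, from 5.25 and 5.09 to 8.95 and 8.76 (3.68 ± 0.22, adjusted p = 4.58e-06). Cdkn1b, which encodes the quiescence inhibitor p27, was at 9.18 and 9.07 before and 9.55 and 9.53 after and did not pass. Genes of DNA repair and the p53 response rose in 14 of 30 (10 to 18). Those beside Cdkn1a that led were repair genes, such as Fancd2 (2.28 ± 0.31), Chek2 (2.21 ± 0.21) and Blm (2.14 ± 0.26). The p53 targets Mdm2 (0.77 ± 0.27, adjusted p = 0.109) and Bbc3 (-0.37 ± 0.29) did not pass. Of 26 clustered histone genes 0 rose in limma and 1 fell (0 to 4), H4c8 (-1.52 ± 0.32, adjusted p up to 0.0984 without 1 array). For comparison, 8.08% of all genes rose and 1.97% fell. Copies of the histone genes are near-identical, so their values are uncertain.

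Glucose use and the hypoxia response rose nearly throughout, in 29 of 35 genes (26 to 32) with a median change of 2.11. Egln3, an oxygen-sensing prolyl hydroxylase that HIF itself induces, went from 5.66 and 4.62 to 9.92 and 9.97 (4.81 ± 0.29). Bnip3, a mitophagy receptor under HIF control, went from 5.24 and 5.12 to 9.47 and 9.45 (4.28 ± 0.21, adjusted p = 1.1e-06), and Vegfa from 4.92 and 5.19 to 8.85 and 8.73. The glucose transporter Slc2a1 went from 7.97 and 7.68 to 11.07 and 10.84 (a change of 1.64 with all rows averaged), the first glycolytic kinase Hk2 from 5.49 and 5.93 to 8.20 and 8.41, and the lactate exporter Slc16a3 from 5.90 and 5.69 to 9.11 and 9.01. Hif1a itself rose by 1.98 ± 0.24, and Ndrg1 by 3.69 ± 0.18. The core hypoxia letters ACGTG were in 26 of 33 promoters of the list (78.8%) and in 23.8% of all. The Bnip3 promoter (RefSeq, GRCm38.p6, chr7:138909507-138909756, minus strand) is shown because that gene combines a large rise with a match on both strands, CACGTG in capitals, from 108 bases before the start.
Bnip3: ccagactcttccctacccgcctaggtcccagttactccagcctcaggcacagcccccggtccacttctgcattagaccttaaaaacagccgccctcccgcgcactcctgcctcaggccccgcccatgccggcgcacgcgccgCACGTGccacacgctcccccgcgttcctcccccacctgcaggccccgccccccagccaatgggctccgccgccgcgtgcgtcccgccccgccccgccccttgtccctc

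Lipid synthesis rose as well. Of 26 cholesterol genes 22 rose (17 to 23), with a median of 1.67, and of 29 fatty acid genes 13 (10 to 16), with a median of 0.86. Hmgcs1, the first committed step of the mevalonate pathway, went from 7.286 and 6.997 to 10.36 and 10.61 (3.34 ± 0.29). Cyp51 went from 6.66 and 6.49 to 9.53 and 9.45, Fdps from 7.19 and 6.96 to 9.89 and 9.89, and Sqle rose by 2.86 ± 0.37. Srebf2, the master regulator of the pathway, had 0.78 ± 0.20 (adjusted p = 0.0313, up to 0.276 without 1 array and 0.556 after quantile normalization). Among desaturases and elongases Fads2 went from 4.28 and 4.61 to 9.59 and 9.48 (5.10 ± 0.38), Fads1 from 5.92 and 5.59 to 8.35 and 8.35, and Elovl6 from 6.36 and 6.32 to 9.19 and 8.92. Dgat1, which makes triglycerides, rose by 2.73 ± 0.19, Fasn by 1.68 ± 0.20 and Srebf1 by 1.37 ± 0.20, the last with an adjusted p of 0.0741 after quantile normalization. The strict sterol element TCACNCCAC was found in 1 of 20 cholesterol promoters (5%), that of Hmgcs1, and in 1.43% of all. The Hmgcs1 promoter (RefSeq, GRCm38.p6, chr13:119690101-119690350, plus strand) has it in capitals 137 bases before the start.
Hmgcs1: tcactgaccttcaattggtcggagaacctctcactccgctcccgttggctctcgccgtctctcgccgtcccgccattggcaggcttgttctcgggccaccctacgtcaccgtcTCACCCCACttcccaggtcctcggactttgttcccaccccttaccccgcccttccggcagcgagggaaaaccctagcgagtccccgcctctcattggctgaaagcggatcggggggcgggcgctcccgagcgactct

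No respiration gene was called. Of 69 measured respiration genes 0 passed in limma in either direction, and the median change was -0.34, between -0.54 after quantile normalization and -0.25 with a common median. After quantile normalization 4 fell and 1 rose, when 2.35% of all genes fell and 4.53% rose. Without the OX40L-JAG1 Teff arrays 24 fell and 3 rose, when 6.75% of all genes fell and 14.8% rose. Cox6a1 was at 11.83 and 11.91 before and 11.92 and 11.87 after, and Sdha at 9.33 and 9.30, then 9.17 and 9.23. In the main comparison 8.08% of all genes rose and 1.97% fell. In the TCA cycle and its carriers 4 of 32 rose (4 to 7): Idh1, the cytosolic isocitrate dehydrogenase (5.59 and 5.10, then 7.56 and 7.76, adjusted p = 0.0506 after quantile normalization), the citrate carrier Slc25a1 (1.49 ± 0.22), Vdac1 (1.37 ± 0.24) and Pcx (1.17 ± 0.21). The cycle enzymes Cs (0.46 ± 0.17, adjusted p = 0.137), Ogdh (0.14 ± 0.20) and Mdh2 (0.37 ± 0.28) did not pass.

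Amino acid and nucleotide supply rose in part. Of 32 amino acid transport and stress genes 10 rose (6 to 14) and 1 fell (0 to 1), and after quantile normalization 5 rose. For this list and the next ones, 8.08% of all genes rose and 1.97% fell, and 4.53% rose after quantile normalization. Gpt2, an alanine aminotransferase, went from 4.19 and 4.24 to 6.62 and 6.12, and Asns, asparagine synthetase, from 5.33 and 5.63 to 7.37 and 7.79 (2.10 ± 0.20). The leucine carrier Slc7a5 rose by 1.25 ± 0.22, a call lost after quantile normalization (adjusted p = 0.22), while its partner Slc3a2 (0.58 ± 0.22) and the stress factor Atf4 (0.18 ± 0.26) did not pass. In the pentose phosphate, one-carbon and nucleotide list 8 of 36 rose (3 to 12), and 4 after quantile normalization, led by Mthfd1l (6.97 and 7.52, then 9.070 and 8.996) and Pgd (7.61 and 7.54, then 9.31 and 9.25). Mthfd2 (0.80 ± 0.26, adjusted p = 0.0839) and Cad (0.70 ± 0.27) did not pass. Of 19 tRNA synthetases 8 rose (1 to 15), and 2 after quantile normalization. Wars rose from 7.80 and 7.38 to 9.20 and 9.16.

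Nearly all small nucleolar RNAs, which guide chemical modification of ribosomal RNA, fell. Of 78 measured snoRNA and scaRNA genes 70 fell (58 to 75), 67 after quantile normalization, and 0 rose. The median change was -2.09, with a range from -3.92 to -0.42, and both anti-CD3-CD28 arrays lay below both control arrays for all 78, as they did for 32% of all genes. Over the genes the median level was 11.95 and 11.97 on the control Treg arrays, 11.12 and 10.77 on the OX40L-JAG1 Treg arrays, and 9.48 and 9.63 on the anti-CD3-CD28 Treg arrays. Snora30 went from 10.82 and 11.68 to 7.47 and 7.20 (-3.92 ± 0.30, adjusted p = 1.24e-05) and Snord90 from 10.27 and 10.81 to 7.06 and 6.90 (-3.56 ± 0.23). In Teff cells the levels went the other way, from 10.93 and 11.02 on the control to 12.47 and 12.48 on the anti-CD3-CD28 arrays. The difference between the responses of the cell types passed the threshold below 0 for 75 of the 78, against 2.94% of all genes. Of the 75, 69 passed under both other normalizations (quantile, and loess on the level trend) as well.

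**Figure D4:**
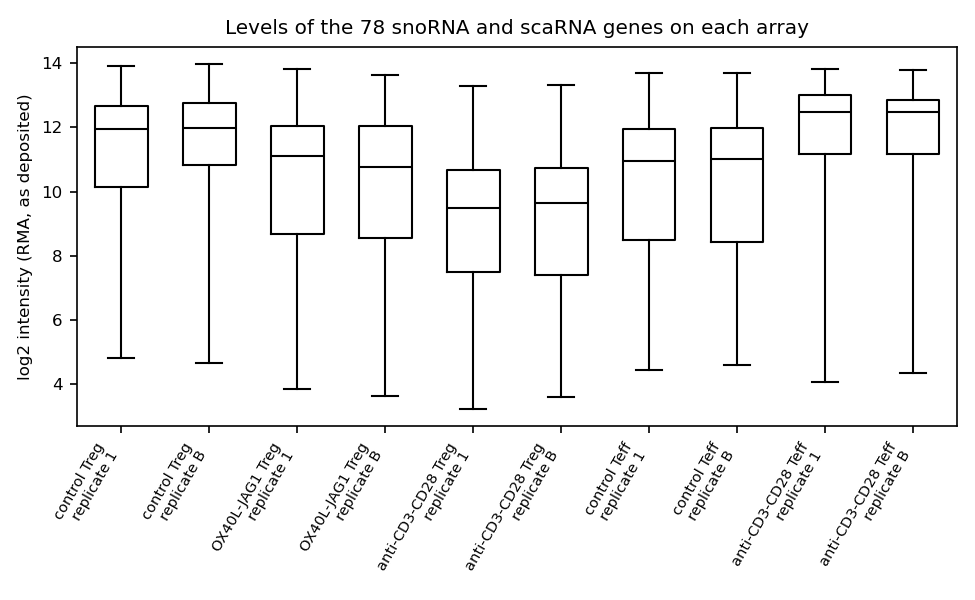
Log2 intensity (vertical axis) of the 78 snoRNA and scaRNA genes on each of 10 arrays, as boxes from the lower to the upper quartile with the median as a line and whiskers to the lowest and highest gene. The medians of the anti-CD3-CD28 Treg arrays (9.48 and 9.63) are the lowest and those of the anti-CD3-CD28 Teff arrays (12.47 and 12.48) the highest.

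Several of the largest falls were of genes that hold a snoRNA gene inside their span. Ptcd3 went from 12.31 and 12.56 to 8.78 and 8.55, Rps20 from 9.92 and 9.98 to 6.41 and 6.33, Wdyhv1 from 10.06 and 10.63 to 6.65 and 7.13, and Med24 from 9.67 and 9.95 to 6.81 and 6.44. With all rows of each gene averaged the changes were -1.96 for Ptcd3, -2.21 for Rps20, -2.10 for Wdyhv1 and -1.34 for Med24, whose call was lost (adjusted p = 0.0678). Each has 1 such gene, and Snhg17, a host transcript (-2.83 ± 0.27), has 2. In all, 377 tested genes hold a snoRNA or scaRNA gene. Of these 19 fell (5.04%, against 1.97% of all genes) and 29 rose (7.69%, against 8.08%). In these rows signal from the host transcript and from the small RNA within it cannot be told apart. Of 58 cytosolic ribosomal proteins 8 fell (13.8%, against 1.97% of all genes) and 0 rose, with a median of -0.51. The falls numbered 3 to 31 with 1 array left out, the 31 without an OX40L-JAG1 Teff array. Rps18 was among them (10.54 and 10.55, then 7.80 and 7.97, a change of -1.24 with all rows averaged). Rps6 was at 13.19 and 13.13 before and 13.02 and 12.97 after. Of 65 ribosome biogenesis genes 2 fell (1 to 7), Ppan (-2.61 ± 0.30, or -1.61 with all rows averaged) and Nop56 (-1.36 ± 0.26, adjusted p up to 0.083 without 1 array). Both hold snoRNA genes, and Ncl (0.54 ± 0.21) and Npm1 (-0.35 ± 0.28) did not pass. Terc, the telomerase RNA, fell from 10.005 and 9.741 to 7.13 and 6.95 (adjusted p = 0.005, up to 0.0523 without 1 array).

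Chaperones of the endoplasmic reticulum rose in part. Of 34 genes 17 rose (6 to 23), 12 after quantile normalization and 7 after loess. Xbp1, the factor of the secretory programme, went from 8.16 and 7.61 to 9.80 and 9.76 (1.89 ± 0.26), the chaperone Hsp90b1 from 10.25 and 10.33 to 11.73 and 11.82, and the disulfide isomerase P4hb from 8.24 and 8.21 to 9.83 and 9.87. Hspa5, which encodes BiP, did not pass (0.50 ± 0.21). As a share of all genes, 8.08% rose. Of 43 proteasome genes 3 rose (0 to 12), and 0 in limma after quantile normalization.

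Interferon-stimulated genes rose in 27 of 42 (16 to 35), with a median of 1.03, and in 19 after quantile normalization. Ifitm3, a membrane protein that blocks virus entry, went from 7.17 and 6.52 to 10.79 and 10.39 (3.75 ± 0.42). Its near copies Ifitm2 and Ifitm1 also rose, but their probes may share signal. Oas2, a sensor of double-stranded RNA, went from 6.18 and 6.09 to 9.08 and 8.88 and Stat2, which carries the type I interferon signal, from 7.51 and 7.16 to 9.72 and 9.66 (2.36 ± 0.26). Irf7 rose by 1.23 ± 0.22 (adjusted p = 0.0557 without anti-CD3-CD28 Treg replicate 1), and Isg15 (0.83 ± 0.30, adjusted p = 0.13) did not pass. The letters of the interferon-stimulated response element were in 16 of 31 promoters (51.6%), against 3.87% of all. Stat2 is shown as a signalling member whose promoter (RefSeq, GRCm38.p6, chr10:128270248-128270497, plus strand) holds them, as the reverse complement and in capitals, 222 bases before the start.
Stat2: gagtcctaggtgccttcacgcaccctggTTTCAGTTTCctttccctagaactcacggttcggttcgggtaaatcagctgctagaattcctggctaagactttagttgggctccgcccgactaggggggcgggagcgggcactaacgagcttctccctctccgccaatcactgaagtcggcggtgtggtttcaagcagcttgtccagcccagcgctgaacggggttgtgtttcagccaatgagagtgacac

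GTPase and sensor families that interferon-gamma induces also rose in part. Of 23 GBP, IRG and PYHIN genes 12 rose (9 to 15), a count that was also 12 after quantile normalization. Iigp1, an immunity-related GTPase, went from 8.13 and 7.97 to 11.03 and 11.07 (3.00 ± 0.24), Gbp7 from 9.46 and 9.27 to 11.48 and 11.56 and Ifi204 from 2.47 and 2.17 to 5.49 and 5.37. Members of these families are close copies and their split is uncertain. The MHC class II gene H2-Ab1 went from 4.65 and 4.85 to 9.02 and 8.94 (4.24 ± 0.33, adjusted p = 1.42e-05), and H2-DMb2 from 3.60 and 3.15 to 6.01 and 5.94. Its partner chain H2-Aa was at 4.81 and 4.67 before and 4.52 and 4.75 after. H2-Eb1 (5.99 and 5.94, then 5.78 and 5.48) and Ciita (4.86 and 4.57, then 4.80 and 4.52), which switches class II genes on, did not pass either.

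Among chromatin genes 12 of 34 rose (5 to 20) and 1 fell (0 to 1), and after quantile normalization 6 rose. Over all genes 8.08% rose and 1.97% fell, and 4.53% rose after quantile normalization. Ezh2, the Polycomb methyltransferase needed by activated Treg cells, went from 8.71 and 8.76 to 10.61 and 10.51 (1.82 ± 0.32). Uhrf1, which guides maintenance methylation, went from 5.74 and 6.34 to 7.69 and 7.63, Dnmt1 rose by 1.20 ± 0.19 and Tet2 by 1.46 ± 0.21 (adjusted p = 0.0572 after quantile normalization), and Dnmt3a (-0.04 ± 0.19) did not pass. The metallothioneins, which buffer zinc, rose by 4.10 ± 0.40 (Mt2, from 6.28 and 5.47 to 10.002 and 9.944) and 3.69 ± 0.40 (Mt1). The zinc importer Slc39a6 went from 6.78 and 5.87 to 9.33 and 9.30. Of 18 zinc handling genes 7 rose (6 to 11).

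Survival and death genes changed in both directions. For this list and the next, the shares over all genes were 8.08% that rose and 1.97% that fell. Of 30 measured 8 rose (6 to 10) and 2 fell (0 to 3). Mlkl, which executes necroptosis, went from 5.52 and 4.82 to 7.82 and 7.64, its kinase Ripk3 from 7.43 and 7.05 to 8.97 and 8.69, and Casp6 from 8.17 and 7.17 to 9.97 and 9.76. The apoptosis scaffold Apaf1 rose by 1.76 ± 0.20 and the killer protein gene Bcl2l11, which encodes BIM, by 1.21 ± 0.20. After quantile normalization the call of Bcl2l11 was lost (adjusted p = 0.0641). Bcl2 (0.50 ± 0.23), Bcl2l1 (0.51 ± 0.18) and Mcl1 (0.34 ± 0.21) did not pass. In the lysosome and autophagy list 3 of 35 rose (1 to 8) and 1 fell (1 to 2), Atp6v0d2, from 5.69 and 5.52 to 3.41 and 3.53. Among the largest falls outside the lists, Gsta4, a detoxifying glutathione transferase, went from 8.71 and 8.76 to 5.48 and 5.51, the sialyltransferase St8sia6 from 8.82 and 8.86 to 5.90 and 5.96, and Apol9b from 7.31 and 6.31 to 4.58 and 3.07 (adjusted p = 0.0506 without control Treg replicate 1).

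Markers of other cells were mostly low on the 4 arrays. Their counts stand beside 8.08% of all genes that rose and 1.97% that fell. The mean level over 17 B and plasma cell markers was 4.69 and 4.73 on the control and 4.35 and 4.43 on the anti-CD3-CD28 Treg arrays, with 1 fall, Jchain, and 10 genes below 4.72 in both groups. Over 25 myeloid and dendritic markers it was 4.71 and 4.77 against 4.50 and 4.47, with 2 falls, Cybb (7.33 and 7.12, then 4.48 and 4.61) and Siglech. The calls of Siglech and Jchain were lost without 1 array, with adjusted p up to 0.303 and 0.121. Neutrophil markers had 4.34 and 4.30 against 4.48 and 4.55, with 2 rises of 16, Ltf and Cxcr2, while S100a8 was at 3.59 and 3.38 before and 3.34 and 3.89 after. Basophil and mast cell markers had 3.91 and 4.05 against 4.45 and 4.30, with Cyp11a1 the only rise of 13, and Mcpt8 at 3.46 and 3.65, then 3.24 and 3.57. CD8 T and NK cell markers had 4.70 and 4.89 against 5.30 and 5.31, Gzma being the only rise of 12. Of 9 erythroid cell and platelet markers Ppbp rose (adjusted p up to 0.0765 without 1 array), and 0 of 5 gamma delta and 0 of 13 stromal markers passed in limma.

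The Y-linked genes Kdm5d, Uty and Eif2s3y were lower in anti-CD3-CD28 than in control Treg cells. Kdm5d was at 6.35 and 5.84 in control Treg, at 2.74 and 2.57 in anti-CD3-CD28 Treg and at 7.31 and 7.69 in OX40L-JAG1 Treg cells, and Uty and Eif2s3y had the same order of groups. Xist, transcribed from the inactive X, was at 10.32 and 10.08, at 11.11 and 11.16, and at 8.31 and 8.77 (adjusted p = 0.0521 against control, 0.0002 against OX40L-JAG1). Whether the groups differed in the sex of their mice was not tested, and such a difference could not be told apart from treatment. The part of these genes, or of sex, in the other changes was not tested.

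Both treatments lasted 3 days, so the direct comparison of anti-CD3-CD28 with OX40L-JAG1 Treg cells sets treated groups side by side. It shares the anti-CD3-CD28 arrays with the main comparison, so its values are not independent of those above. There 1050 genes were higher in anti-CD3-CD28 Treg cells (4.73%) and 261 lower (1.18%). Of the mitosis list 58 of 68 were higher, of DNA replication 39 of 55 and of glycolysis and hypoxia 24 of 35, each with 0 lower. After quantile normalization the replication count was 22, and 2.87% of all genes were higher. Without the OX40L-JAG1 Teff arrays 1 mitosis gene was lower, when 9.89% of all genes were higher and 4.01% lower. The IL-2 list had 9 higher and 2 lower of 20, and cholesterol synthesis 12 of 26 higher, counts that were 14, 2 and 20 without those arrays. Among the genes that were higher, Gzma and Gzmb differed most. Gzma was at 6.06 and 5.62 in OX40L-JAG1 Treg cells (5.56 ± 0.65) and Gzmb at 6.91 and 6.41 (5.55 ± 0.26). Higher too were Nfil3 (3.73 ± 0.21), Ccr8 (2.93 ± 0.19), Tigit (2.74 ± 0.29), Lag3 (2.58 ± 0.19), Maf (2.48 ± 0.18) and Il10 (3.60 ± 0.25). Il10 was at 3.54 and 4.19 and Ccr8 at 6.88 and 6.93 in OX40L-JAG1 Treg cells. GBP, IRG and PYHIN genes were higher in 2 of 23, and MHC genes in 0 of 19 with 2 lower. Without the OX40L-JAG1 Teff arrays 5 of the former were higher, and of the MHC genes 1 was higher and 6 were lower. H2-Ab1 was at 8.61 and 8.33 in OX40L-JAG1 Treg cells, a difference of 0.51 that did not pass (adjusted p = 0.56).

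Lower in anti-CD3-CD28 Treg cells were genes best known from other leukocytes. S100a8 was at 9.84 and 9.66 in OX40L-JAG1 Treg cells (-6.13, adjusted p = 7.45e-06), Chil3 at 8.32 and 8.26, the basophil protease Mcpt8 at 8.36 and 8.21 and lysozyme Lyz2 at 8.97 and 8.80, all below 5 on the 4 arrays of the main comparison. Against OX40L-JAG1 Treg cells 8 of 16 neutrophil, 9 of 25 myeloid (16 without the OX40L-JAG1 Teff arrays) and 5 of 13 basophil markers were lower, and the mean level of neutrophil markers was 6.49 and 6.13 on the OX40L-JAG1 arrays. Their part in the other differences from OX40L-JAG1 cells was not tested. St8sia6 (-2.91 ± 0.17), Itga4 (-2.11 ± 0.18), Id3 (-2.13 ± 0.34), Ccr6 (-2.05 ± 0.21) and Btla (-1.68 ± 0.24) were lower than in OX40L-JAG1 cells too.

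The responses of Treg and Teff cells to the same antibodies were compared by their difference (interaction, Treg response minus Teff response). Over all genes 2251 differences passed the threshold above 0 (10.1%) and 653 passed it below 0 (2.94%). The total of 2904 (13.1%) was 1071 (4.83%) after quantile normalization and 1101 (4.96%) after loess on the level trend, so the differences named here as passing are those that passed in all 3 fits. Il2ra differed by -2.94 ± 0.39: in Teff cells it was at 6.64 and 6.90, then 11.36 and 11.47. Ctla4 differed by -2.51 ± 0.33, with 6.15 and 5.99, then 9.77 and 9.84 in Teff cells. Both changed more in Teff cells, from a lower start, and after the antibodies were lower in Teff than in Treg cells. The same sign was seen for Lrrc32 (-2.10 ± 0.32), Tnfrsf4 (-1.93 ± 0.36) and Ccr8 (-1.74 ± 0.27). Il10 differed by -3.84 ± 0.35 and was at 3.88 and 4.14, then 8.96 and 9.30 in Teff cells, so after the antibodies it was lower in Treg cells. The cytokine genes Il13 (-2.88 ± 0.48), Il4 (-2.73 ± 0.39) and Ifng (-2.06 ± 0.30) had the same sign.

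Larger rises in Treg than in Teff cells were seen for Il12rb2 (2.65 ± 0.40), Scd1 (2.93 ± 0.45), Cyp11a1 (2.45 ± 0.38), Elovl6 (2.26 ± 0.32), Fads1 (2.25 ± 0.27) and E2f8 (2.18 ± 0.31). Fads1 was at 6.46 and 6.64, then 7.04 and 6.75 in Teff cells. H2-Ab1 differed by 3.96 ± 0.47, with 7.53 and 7.56, then 7.79 and 7.85 in Teff cells, and Mt2 by 3.10 ± 0.56. Gpr33, a receptor related to chemoattractant receptors, went from 4.17 and 4.31 to 7.57 and 7.56 in Treg cells and was at 4.36 and 4.32, then 4.34 and 4.75 in Teff cells (3.13 ± 0.30). Another set differed through Teff cells. Cd4 was at 11.84 and 11.93, then 9.86 and 9.97 there (2.17 ± 0.31), and Ehd3, an endocytic recycling gene, at 9.79 and 9.84, then 6.54 and 6.22, against 6.77 and 6.75, then 6.61 and 6.26, in Treg cells (3.11 ± 0.35). Cd27 was at 10.40 and 10.55, then 7.45 and 7.99 in Teff cells (2.75 ± 0.42), Foxo1 at 9.98 and 10.01, then 7.49 and 7.57 (2.55 ± 0.26) and S1pr1 at 10.89 and 10.97, then 8.78 and 8.54 (2.26 ± 0.34). Each of these genes had lower Teff values after the antibodies. Gzma (0.65 ± 0.92), Gzmb (-0.83 ± 0.36), Tnfrsf8 (0.69 ± 0.35) and Hspa1a (0.46 ± 0.33) did not pass, with adjusted p of 0.683, 0.157, 0.219 and 0.385.

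**Figure D5:**
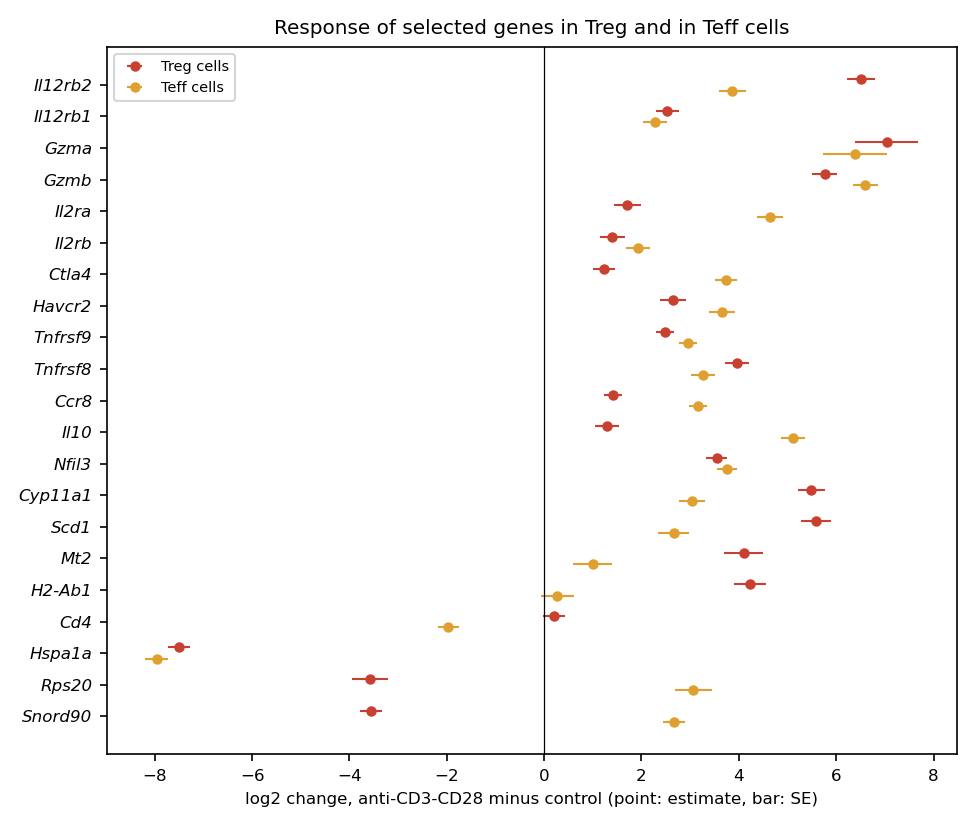
Log2 change with anti-CD3-CD28 (points, bars are SE, horizontal axis) in Treg cells (red) and in Teff cells (yellow) for 21 selected genes. Il2ra, Ctla4 and Il10 lie further right in Teff cells, Il12rb2, Scd1 and Mt2 in Treg cells, and Rps20 and Snord90 lie on opposite sides of 0.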

How the data were processed

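RNA from 12 samples was measured on 1 Affymetrix Mouse Gene 2.0 ST array each. The deposited log2 intensities were made by the authors with RMA (background correction, quantile normalization and probe summary), per the submitters' processing notes; its version and the annotation build are not given in the sources used here. Of 41345 table rows, 23521 carried 1 gene symbol, and where a gene had several, the brightest row on average was kept, which left 22180 genes. Samples were grouped by their labels. limma 3.58.1 (R 4.3.3) fitted 1 mean per group over all 12 arrays, with eBayes and Benjamini-Hochberg adjustment within each contrast at 0.05. The model was tested on simulated data. With 2 arrays per group the number of arrays limits the precision. Array probes can be shared by near-identical genes. The members and gene lists were chosen with earlier results of these data known. Genes were named by size of change among the largest rises and falls, as anchors of 53 gene lists, and as the largest changes in each list past the threshold. Cd8a, Ncr1, Klrb1c, H2-Aa, H2-Eb1, Ciita, S100a8, Lyz2, Mcpt8 and Chil3 were given as marker levels. Promoters are RefSeq sequences of GRCm38.p6, matched by symbol for 16990 genes. The alternatives tried were the replicate block, other sets of arrays, array weights, filters, normalizations, row choices and thresholds.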

Additional observations from a re-analysis of the deposited data

Results flagged for a closer look

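Of the 30 largest changes named, 17 had a response in Treg cells that differed from that in Teff cells by the limma interaction test, and 15 of the 17 also passed after quantile normalization and after loess on the level trend, the exceptions being Fads2 and Apol9b. The difference (Treg response minus Teff response, log2) was 2.646 for Il12rb2, 2.928 for Scd1, 2.452 for Cyp11a1, 1.81 for Fads2, 1.684 for Efna5, 3.963 for H2-Ab1, 3.1 for Mt2, 2.664 for Enah and 1.592 for Tube1. It was -5.699 for Ptcd3, -6.644 for Rps20, -5.43 for Wdyhv1, -6.695 for Med24 and -5.122 for Snhg17, which all hold snoRNA genes. It was -3.772 for the telomerase RNA Terc, -3.074 for Gsta4 and -2.562 for Apol9b. Among the 16010 table rows with no gene symbol, which no comparison above used, 294 rose and 428 fell in anti-CD3-CD28 Treg cells in a limma fit over all rows.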

How the results depend on the processing

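The 1792 rises became 3273 without the OX40L-JAG1 Teff arrays, 3179 with the 4 compared arrays alone, 3573 with array weights and 1004 after quantile normalization, and ranged from 869 to 3273 with 1 array left out. The 438 falls became 1497, 1526 and 1877 in the first 3 of these, 801 over all table rows and 287 with a change of at least 1, and ranged from 185 to 1497. The 1311 differences from OX40L-JAG1 Treg cells became 3082 without the OX40L-JAG1 Teff arrays and 3435 with array weights, with a range of 595 to 3082. The 2904 interactions became 6869 and 7344 in those fits, 1071 after quantile normalization, 1101 after loess on the level trend and 4498 over all rows, with a range of 971 to 6869. Of 269 called genes that the naming rule gave, 173 passed under every alternative, 182 with any 1 array left out, and 0 changed sign. Quantile normalization ended 54 of these calls. Over genes, the differences between replicates (B minus 1) of control and anti-CD3-CD28 Treg cells correlated at 0.0283. Over the 15 pairs of groups the correlations ran from -0.0693 to 0.182. With 1 such difference per group, these values cannot tell whether samples with the same replicate label were made as pairs. With a replicate block 1707 genes rose and 417 fell, 1258 differed from OX40L-JAG1 Treg cells, and 2691 interactions passed. Leaving out 1 array of a pair leaves the other to stand for its group, on the assumption that it varies like the other groups. Genes near or below 4.72 have changes that background may compress.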
